A study of Rattus norvegicus with 6 samples.

Results

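The genes described here are 10 classical targets of the tumour suppressor p53 and members of the Gadd45 family in the liver of rats fed the pyrethroid insecticide epsilon-momfluorothrin. They were chosen by name: every probe set whose annotated gene symbol was Gadd45a, Gadd45b, Gadd45g, Mdm2, Cdkn1a, Ccng1, Btg2, Sesn1, Phlda3 or Bax was taken, whatever its values. A probe set of their own was found for 8 of the 10, out of 14217 genes with such a probe set on the array, and these 8 genes had 12 probe sets. Bax was represented by 1 probe set that the annotation shares with LOC681314. Btg2 had no probe set of its own in the annotation used, so its expression was not analysed here. Liver RNA came from 3 male rats on a diet with epsilon-momfluorothrin for 2 weeks and from 3 male rats on the same kind of diet without it, with 1 Affymetrix 1-colour array per animal. The labels give the treated diet as 3000 ppm in the titles and as 5000 ppm in the characteristics, so the level is not settled. All 6 animals were of the stock BrlHan:WIST@Jcl(GALAS), were bought at 4 weeks of age, spent 1 week in quarantine and were 7 weeks old at sampling. The values are linear signals, which have no absolute unit.

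p53 is a transcription factor that is stabilised after DNA damage and other stress. Its targets stop the cell cycle, repair DNA, adjust metabolism or start apoptosis, and Mdm2, itself a target, marks p53 for degradation. The 3 Gadd45 proteins are small acidic nuclear proteins that bind PCNA, the CDK1 and cyclin B complex and the kinase Map3k4, and Gadd45a is the member that p53 induces. In the liver of mice Gadd45b and Mdm2 are also known as targets of CAR, the nuclear receptor through which many drugs and insecticides induce drug-metabolising enzymes and liver growth.

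No gene of the group passed the test. Of the 8 genes, 0 had an adjusted p under 0.05 in limma, where 0.217% of all 9200 tested genes did, and 0 had an unadjusted p under 0.05, against a background of 12.2%, of which 6.05% were higher and 6.18% lower. The groups overlapped for all 8, and they did not overlap for 18.3% of all genes. With 8 genes, counts of 0 do not set the group apart from these shares. The 8 genes were split evenly, with 4 higher and 4 lower in momfluorothrin livers, at a median log2 difference of 0.063, beside -0.012 over all genes tested. The 3 Gadd45 genes differed between animals of 1 group by more than most genes of the liver did.

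The sequences upstream of the genes are shown first, because the group is named for a transcription factor. RefSeq promoters of build GRCr8 were matched for 9 of the 10 genes, Btg2 included, and the 250 bases before each annotated start were searched on both strands. A p53 half-site, the motif that p53 binds in pairs, was found in 4 of the 9, against 6.64% of all 33469 rat promoters of the same length. The matches lay at -48 to -39 from the start of Gadd45a, at -201 to -192 of Cdkn1a, at -232 to -223 of Ccng1 and at -172 to -163 of Sesn1. Each window held 1 exact match, read on both strands, and half-sites with a mismatch were not searched for. Bases outside the windows were not searched. A window with no match, such as that of Mdm2, therefore does not speak on control by p53. The bases right after the match of Cdkn1a, tgacttgttc, depart from the motif at the first base only. The 4 windows are printed 5′ to 3′ on the strand of the gene, with the half-site in capitals, and that of Gadd45b is printed beside them as a family member with no match.
Gadd45a, chr4:97486800-97487049, minus strand: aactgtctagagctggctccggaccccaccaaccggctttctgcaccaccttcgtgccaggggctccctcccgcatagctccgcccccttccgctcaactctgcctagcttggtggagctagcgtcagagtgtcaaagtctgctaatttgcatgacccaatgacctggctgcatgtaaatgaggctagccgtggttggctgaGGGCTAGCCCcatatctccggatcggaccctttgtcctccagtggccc
Cdkn1a, chr20:7150682-7150931, plus strand: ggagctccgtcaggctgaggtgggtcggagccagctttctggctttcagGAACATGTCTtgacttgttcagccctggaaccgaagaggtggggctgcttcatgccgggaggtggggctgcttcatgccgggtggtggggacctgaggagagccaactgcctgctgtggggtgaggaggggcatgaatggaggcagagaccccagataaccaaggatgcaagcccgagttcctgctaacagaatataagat
Ccng1, chr10:25684877-25685126, minus strand: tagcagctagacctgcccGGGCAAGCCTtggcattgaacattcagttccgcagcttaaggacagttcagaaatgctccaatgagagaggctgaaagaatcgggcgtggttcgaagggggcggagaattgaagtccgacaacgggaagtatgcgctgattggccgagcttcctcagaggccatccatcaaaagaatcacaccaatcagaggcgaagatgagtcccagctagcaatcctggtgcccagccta
Sesn1, chr20:46948469-46948718, plus strand: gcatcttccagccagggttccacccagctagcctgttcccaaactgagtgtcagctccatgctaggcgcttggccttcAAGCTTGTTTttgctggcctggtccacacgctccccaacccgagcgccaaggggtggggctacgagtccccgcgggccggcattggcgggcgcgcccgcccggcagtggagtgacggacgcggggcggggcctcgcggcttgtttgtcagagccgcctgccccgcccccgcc
Gadd45b, chr7:9430719-9430968, minus strand: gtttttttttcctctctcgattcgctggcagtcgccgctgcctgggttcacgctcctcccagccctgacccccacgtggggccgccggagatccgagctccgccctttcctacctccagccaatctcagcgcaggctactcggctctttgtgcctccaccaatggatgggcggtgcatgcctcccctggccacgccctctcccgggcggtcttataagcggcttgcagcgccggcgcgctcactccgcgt

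The same windows were searched for other promoter motifs. A CCAAT box (CCAAT) was found in 7 of the 9 windows, against 34.0% of all promoters, and a GC box (GGGCGG) in 7 of the 9, against 30.5%. The core of the cyclic AMP response element (TGACG) was in 5 of the 9, against 18.2%. A nuclear receptor half-site (AGGTCA) was in 2 of the 9, those of Gadd45a and Btg2, against 14.1%, and in Gadd45a it overlapped the CCAAT box at its edge. Neighbouring GC boxes of Btg2 and Phlda3 and the CRE cores of Btg2 also overlapped. A TATA box (TATAAA) was found for Gadd45g alone, against 12.9% of all promoters, and no window held the AP-1 site TGANTCA (6.34%) or a CArG box (501 promoters). These windows were richer in G and C, at 53.6% to 73.6%, than the median promoter at 51.2%. A match is a run of letters and does not show binding.

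Gadd45b had the largest difference in the group. Its signals were 35.6, 54.7 and 26.8 in momfluorothrin livers, replicates 1 to 3, against 32.3, 26.2 and 10.3 in control livers. All 3 momfluorothrin arrays but only 1 of 3 control arrays exceeded their own array median, so the gene sat near the lower limit of what was tested and entered the test mainly through momfluorothrin livers. The means were 39.0 ± 14.3 and 22.9 ± 11.4 in momfluorothrin and control livers (SD, n = 3 each). The geometric means, which the log2 difference compares, were 1.82-fold apart. The log2 difference was 0.86 ± 0.46 (SE) with a 95% interval of -0.17 to 1.90, and it did not pass (adjusted p = 0.508 in limma). Momfluorothrin replicate 3 lay within the range of the control livers. The size of the difference rested on control replicate 3, without which it was 0.36 ± 0.34 (SE).

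Gadd45a, the p53-induced member, had signals of 142, 261 and 83.8 in momfluorothrin livers, against 92.1, 194 and 111 in control livers. All 6 values exceeded the array medians. The highest and the lowest of the 6 were both from momfluorothrin livers, 3.11-fold apart. The means were 162 ± 90.3 in momfluorothrin and 132 ± 54.2 in control livers (SD, n = 3 each), and the log2 difference was 0.22 ± 0.40 (SE, 95% interval -0.69 to 1.12, adjusted p = 0.861 in limma). Its direction hung on single animals, since it was -0.20 ± 0.34 without momfluorothrin replicate 2 and -0.0064 ± 0.44 without control replicate 1 (SE).

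Gadd45g, which in mice responds to cytokines and growth factors, had signals of 43.3, 57.8 and 28.5 in momfluorothrin livers, against 19.1, 62.9 and 145 in control livers. The 3 momfluorothrin values lay inside the range of the control values. All 3 momfluorothrin arrays but 2 of 3 control arrays exceeded their array median, and control replicate 1 was below it. The means were 43.2 ± 14.6 and 75.8 ± 64.1 in momfluorothrin and control livers (SD, n = 3 each), and the log2 difference was -0.43 ± 0.62 (SE, 95% interval -1.84 to 0.98, adjusted p = 0.821 in limma). Without control replicate 3 it was 0.26 ± 0.51, and without control replicate 1 it was -1.21 ± 0.40 (SE, adjusted p = 0.377 in limma), so the direction turned on which control animal was left out.

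**Figure D1:**
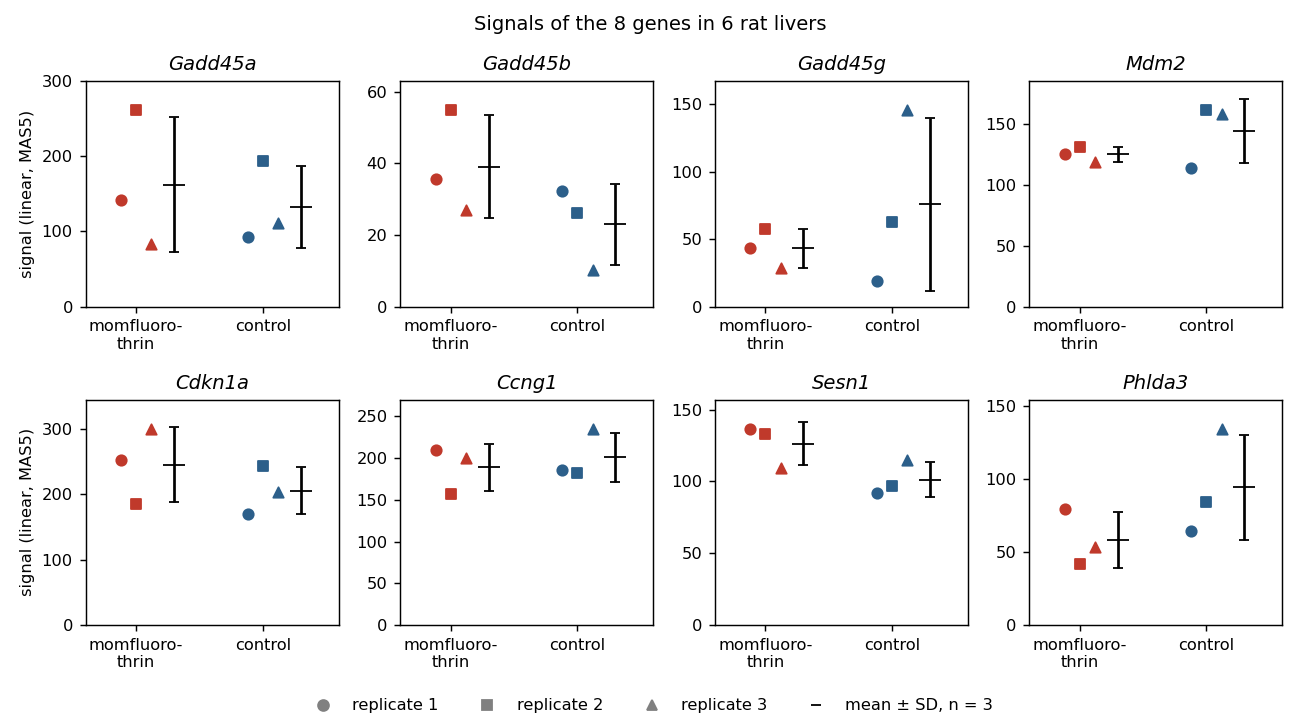
Linear signals of the 8 genes in each liver, with momfluorothrin livers in red on the left and control livers in blue on the right of each panel, 1 symbol shape per replicate number, and the mean ± SD of 3 animals beside them. The groups overlapped in every panel, and Gadd45a, Gadd45b and Gadd45g had wide ranges, from 19.1 to 145 in control livers for Gadd45g.

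Mdm2, the ubiquitin ligase that degrades p53, was measured by 3 probe sets. The brightest had signals of 126, 131 and 118 in momfluorothrin livers, against 113, 161 and 158 in control livers. The momfluorothrin values lay close together, between the lowest control value and the other two. The log2 difference was -0.19 ± 0.15 (SE, n = 3 each, 95% interval -0.53 to 0.16, adjusted p = 0.666 in limma), and its size changed with the control animal left out. It was -0.35 ± 0.12 without control replicate 1 (SE, adjusted p = 0.392 in limma), -0.099 ± 0.17 without replicate 2 and -0.11 ± 0.17 without replicate 3. The probe sets did not share a direction. The next had 86.0, 68.2 and 74.0 in momfluorothrin livers, against 72.0, 61.0 and 65.1 in control livers, and differed by 0.20 ± 0.15 on the log2 scale (SE, limma adjusted p = 0.634). The dimmest had 34.3, 45.7 and 30.6 in momfluorothrin livers, against 38.0, 49.3 and 33.8 in control livers (log2 difference -0.13 ± 0.24, SE, adjusted p = 0.857 in limma). The mean of the 3 probe sets differed by -0.040 ± 0.13 (SE).

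Cdkn1a, the inhibitor of cyclin-dependent kinases through which p53 halts cells before DNA replication, had signals of 252, 185 and 300.0 in momfluorothrin livers, against 170.3, 243 and 203 in control livers. The means were 246 ± 57.8 and 206 ± 36.5 in momfluorothrin and control livers (SD, n = 3 each). The log2 difference of 0.24 ± 0.19 did not pass (SE, 95% interval -0.19 to 0.68, adjusted p = 0.659 in limma). Momfluorothrin replicate 2 was lower than 2 of the control livers, and without it the difference was 0.43 ± 0.17 (SE, unadjusted p = 0.0353 and adjusted p = 0.458 in limma). Without momfluorothrin replicate 3 it was 0.085 ± 0.19 (SE).

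A dimmer probe set of Cdkn1a spread the momfluorothrin animals further apart. It had 58.8, 12.8 and 79.9 in momfluorothrin livers, against 22.3, 26.9 and 32.0 in control livers. Momfluorothrin replicates 1 and 3 lay above every control liver and replicate 2 lay below all of them, as the lowest of the 6. It exceeded the array median on 2 of 3 momfluorothrin arrays and 1 of 3 control arrays, and its log2 difference was 0.55 ± 0.59 (SE, limma adjusted p = 0.753). Both probe sets of the gene had the order replicate 3, then 1, then 2 in momfluorothrin livers, an order shared by 15.7% of all genes. The mean of both differed by 0.40 ± 0.38 on the log2 scale (SE).

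Ccng1, which encodes cyclin G1, a p53 target that directs a phosphatase to Mdm2, had signals of 209, 157 and 200.1 in momfluorothrin livers, against 186, 182 and 235 in control livers. Its means of 189 ± 27.9 and 201 ± 29.4 in momfluorothrin and control livers (SD, n = 3 each) differed by less than the spread in either group. The log2 difference was -0.09 ± 0.15 (SE, 95% interval -0.43 to 0.25, adjusted p = 0.843 in limma). It was 0.036 without momfluorothrin replicate 2 and 0.026 without control replicate 3.

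Sesn1, a stress-induced protein that restrains the growth kinase complex mTORC1, had signals of 136, 133 and 109 in momfluorothrin livers, against 91.8, 96.6 and 115 in control livers. Momfluorothrin replicates 1 and 2 exceeded every control liver and replicate 3 lay below control replicate 3. The log2 difference was 0.32 ± 0.14 (SE, n = 3 each, 95% interval -0.001 to 0.64) and had the smallest p of the group, unadjusted p = 0.0506 and adjusted p = 0.433 in limma. A dimmer probe set of Sesn1 had the other direction, with 31.2, 41.8 and 30.3 in momfluorothrin livers, against 33.8, 42.7 and 43.2 in control livers (log2 difference -0.22 ± 0.22, SE, adjusted p = 0.735 in limma). The mean of both probe sets differed by 0.051 ± 0.16 (SE, adjusted p = 0.921 in limma).

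Phlda3, a p53 target that restrains the survival kinase Akt, had signals of 79.1, 41.7 and 53.6 in momfluorothrin livers, against 64.1, 84.1 and 134 in control livers. Momfluorothrin replicates 2 and 3 lay below every control liver and replicate 1 lay within the control range. The means were 58.1 ± 19.1 and 94.1 ± 36.0 in momfluorothrin and control livers (SD, n = 3 each), and the log2 difference was -0.68 ± 0.30 (SE, 95% interval -1.36 to 0.01, unadjusted p = 0.0523 and adjusted p = 0.438 in limma). Without control replicate 3, the highest of the 6, it was -0.39 ± 0.28, and without momfluorothrin replicate 1 it was -0.92 ± 0.30 (SE).

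The probe set shared by Bax, the pore-forming protein of mitochondrial apoptosis, and LOC681314 measures neither gene alone. It had 63.4, 76.5 and 75.3 in momfluorothrin livers, against 50.7, 64.4 and 98.9 in control livers. The control livers enclosed all momfluorothrin values, and the log2 difference was 0.06 ± 0.23 (SE, n = 3 each, adjusted p = 0.939 in limma).

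**Figure D2:**
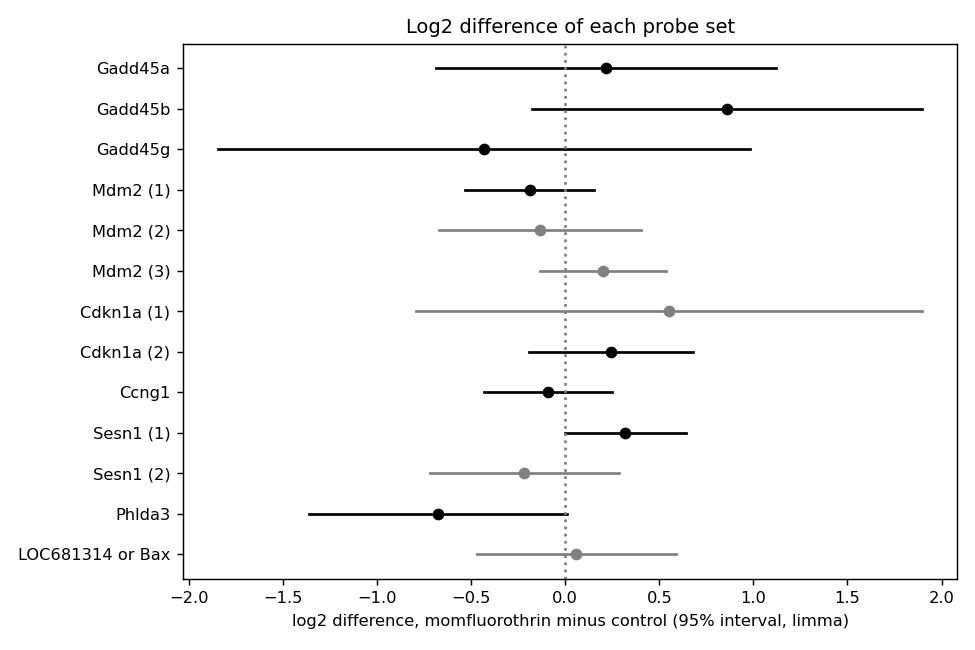
Log2 differences, momfluorothrin minus control, of the 12 probe sets of the 8 genes and of the one shared by LOC681314 and Bax, with their 95% intervals from limma (black for the brightest probe set of a gene, grey for the others, numbered where a gene has several). Every interval spans 0, and the probe sets of Mdm2 and of Sesn1 point both ways.

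Read from the brightest probe set of each gene, the 3 Gadd45 genes stood out in the spread between animals. The other members did so less or not at all. The SD within groups on the log2 scale was 1.10 for Gadd45g, 0.72 for Gadd45b and 0.70 for Gadd45a, beside a median of 0.18 over all genes. Gadd45g varied more than 99.4% of all genes, Gadd45b more than 98.2% and Gadd45a more than 98.1%. Dim genes vary more on these arrays, and genes with a signal within 1.5-fold of that of Gadd45b had a median SD of 0.33, those near Gadd45g 0.25 and those near Gadd45a 0.16. Phlda3 had an SD of 0.50, above 95.2% of all genes, and Cdkn1a one of 0.31 (82.0%). The dimmer probe set of Cdkn1a, near the array median, had an SD of 1.02, above 99.3% of all genes. Genes of like signal to that probe set had a median SD of 0.31. Ccng1 at 0.21, Mdm2 at 0.21 and Sesn1 at 0.17 lay near the middle of all genes. All but Sesn1 exceeded the median of genes of like signal. Wide spreads were not limited to these genes, and the immediate early genes Dusp1 and Myc had SDs of 0.80 and 0.64.

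**Figure D3:**
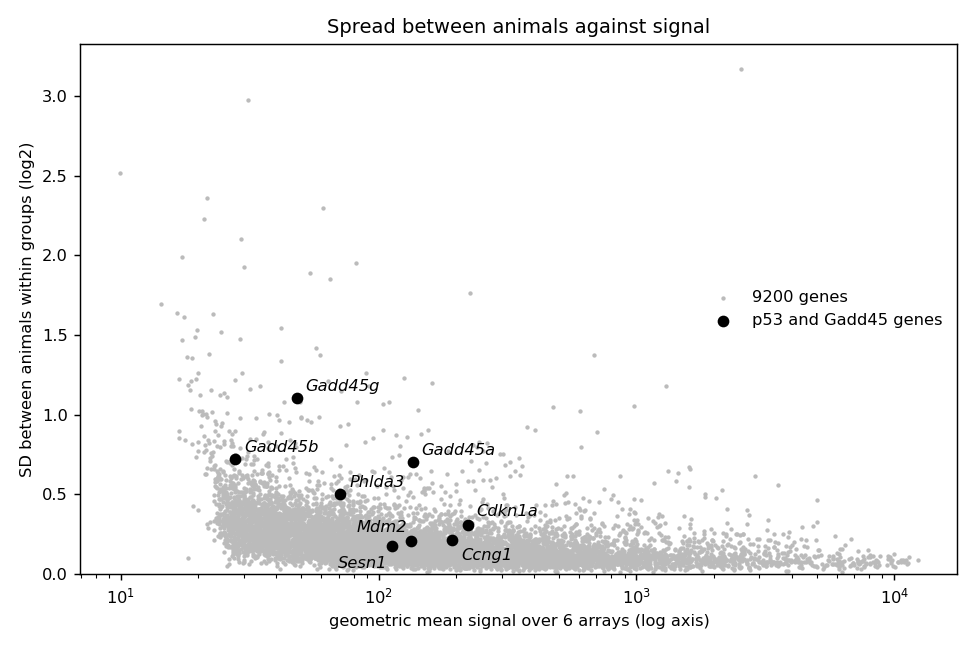
SD between animals within groups (log2, vertical axis) against the geometric mean signal over 6 arrays (log axis) for 9200 genes in grey and the 8 genes in black, each by its brightest probe set. Gadd45a, Gadd45b and Gadd45g lie above most genes of like signal, while Mdm2, Ccng1 and Sesn1 lie within the main band.

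The 3 Gadd45 genes ranked the animals alike among momfluorothrin livers and differently among control livers. In momfluorothrin livers replicate 2 was highest, replicate 1 next and replicate 3 lowest for all 3 of them, an order found in 17.0% of all genes. In control livers Gadd45a was highest in replicate 2, Gadd45b in replicate 1 and Gadd45g in replicate 3. The immediate early genes, which code for transcription factors and signal regulators that are switched on within minutes of a stimulus, differed between the same animals. Momfluorothrin replicate 2 was the highest of its group for 10 of 12 of them (32.9% of all genes) and control replicate 2 the highest of its group for 8 of 12 (32.3% of all genes). The lowest momfluorothrin animal was replicate 1 for 7 of the 12 (32.7% of all genes) and replicate 3 for 4 (35.1%). The full order of the Gadd45 genes in momfluorothrin livers was found in 4 of the 12. Gadd45a was highest in replicate 2 of both groups, as were 7 of the 12 immediate early genes and 11.9% of all genes. Equal replicate numbers name different animals, and the part of these animals in the values of the Gadd45 genes was not tested.

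Among the immediate early genes Dusp1, a phosphatase of MAP kinases, had 697, 1061 and 278 in momfluorothrin livers, against 558, 965 and 463 in control livers. The highest animal of each group was thus the one with the highest Gadd45a. Of the 14 listed genes 12 were tested and none passed (median log2 difference 0.20). At an unadjusted p under 0.05 in limma 2 were higher and none lower, beside 6.05% and 6.18% of all genes. The smallest p were those of Klf6, a zinc finger factor, at 0.64 ± 0.19, and Jun, a subunit of AP-1, at 0.70 ± 0.26 (SE, n = 3 each, adjusted p = 0.264 and 0.367 in limma).

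**Figure D4:**
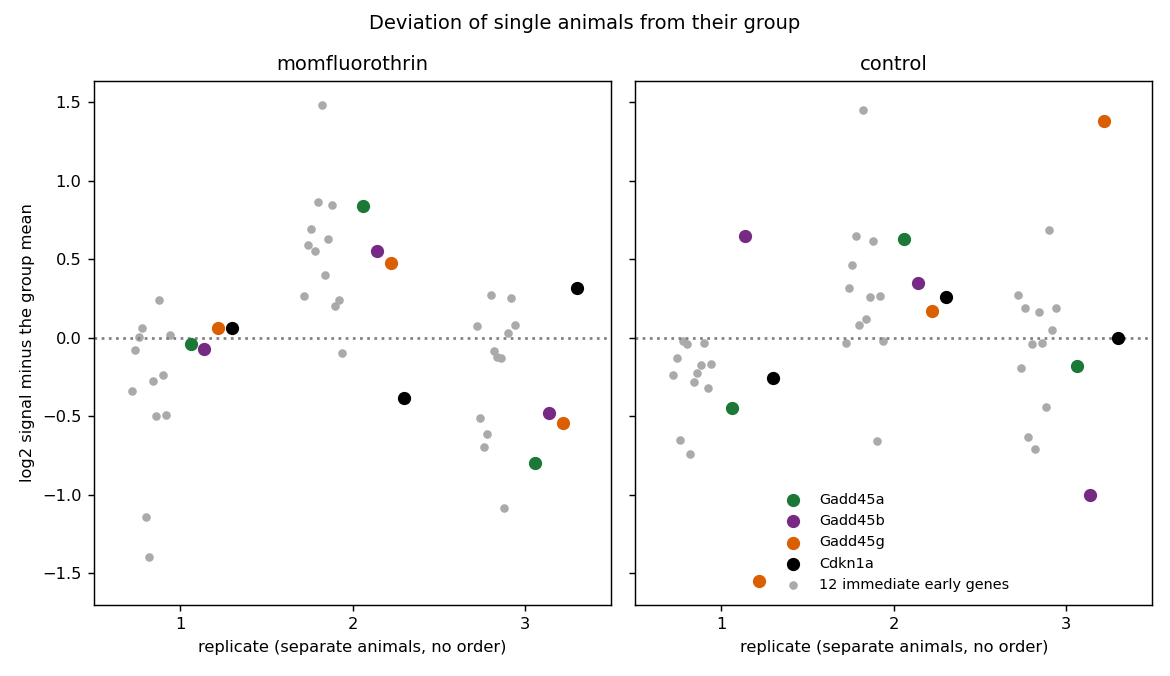
Log2 signal minus the mean of its own group for each animal, with momfluorothrin livers on the left and control livers on the right. The coloured points are Gadd45a, Gadd45b, Gadd45g and Cdkn1a and the grey points 12 immediate early genes. In momfluorothrin replicate 2 the Gadd45 genes and 10 of the immediate early genes are at their highest and Cdkn1a at its lowest.

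Other genes of the p53 pathway gave no call either. Of 25 listed targets and regulators 16 were tested and none passed in limma, and the median log2 difference was -0.12. At an unadjusted p under 0.05, 1 was higher and 2 were lower, beside 6.05% and 6.18% of all genes. Apaf1, the scaffold of the apoptosome, had 46.7, 55.8 and 40.1 in momfluorothrin livers, against 72.2, 69.0 and 80.1 in control livers. Its groups did not overlap, and its log2 difference was -0.64 ± 0.17 (SE, n = 3 each, adjusted p = 0.220 in limma). Aen, a nuclease induced by p53, differed by -0.40 ± 0.15 on the log2 scale (SE, limma adjusted p = 0.389). Mdm4, the partner of Mdm2 in holding p53 down, had means of 178 ± 17.6 in momfluorothrin and 193 ± 18.6 in control livers (SD), and differed by -0.12 ± 0.12 on the log2 scale (SE, limma adjusted p = 0.740).

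The partners of Gadd45 proteins gave no call. Of 8 listed genes 5 were tested, none passed in limma, none had an unadjusted p under 0.05, and the median log2 difference was 0.08. Pcna, the DNA polymerase clamp, had a log2 difference of 0.26 ± 0.12 and Map3k4, the kinase that Gadd45 proteins activate, one of 0.20 ± 0.12 (SE, n = 3 each), with limma adjusted p of 0.449 and 0.568. Mapk8, a stress kinase, differed by -0.15 ± 0.11 (SE, limma adjusted p = 0.635). It was the 1 of 5 tested partners whose groups did not overlap, beside 18.3% of all genes. Cdk1 and Ccnb1 were on the array but too dim to be tested.

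Other genes that restrain growth were spread around a median of -0.08, with 10 of 14 tested and none past the threshold in limma. At an unadjusted p under 0.05, 1 was lower, as were 6.18% of all genes. That gene was Rb1, the retinoblastoma protein that holds back E2F, at 136, 123 and 64.6 in momfluorothrin livers, against 155, 144 and 161 in control livers. Its groups did not overlap, and its log2 difference was -0.58 ± 0.25 (SE, n = 3 each, adjusted p = 0.429 in limma). Cdkn2d, an inhibitor of CDK4 and CDK6, differed by -0.42 ± 0.20 on the log2 scale (SE, limma adjusted p = 0.472).

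In the family of Bax 8 of 13 other genes were tested and none passed in limma, with a median of -0.13. There were 1 higher and 1 lower at an unadjusted p under 0.05, beside 6.05% and 6.18% of all genes. Bcl2l11, the pro-apoptotic protein Bim, had 103, 117 and 122 in momfluorothrin livers, against 56.2, 60.3 and 76.9 in control livers. All momfluorothrin livers exceeded all control livers, and the log2 difference of 0.83 ± 0.15 (SE, n = 3 each) had an adjusted p of 0.107 in limma. Bid, which links death receptors to Bax, had 181, 160 and 180.3 in momfluorothrin livers, against 211, 220 and 234 in control livers. Its groups did not overlap, in the other direction, and its log2 difference was -0.35 ± 0.10 (SE, limma adjusted p = 0.272).

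Genes of the cell cycle and DNA replication were mostly too dim to be tested. Of 29 listed genes 8 were tested, and 1 was higher and 7 lower in momfluorothrin livers. Their median log2 difference was -0.19, beside -0.012 over all genes tested. Among the 7 lower, Mcm2, Mcm4 and Mcm5 had signals near the array medians. None of the 8 passed in limma and 1 was lower at an unadjusted p under 0.05, as were 6.18% of all genes. That gene was Cdk2, the kinase that Cdkn1a inhibits, with means of 65.7 ± 5.06 in momfluorothrin and 91.0 ± 11.0 in control livers (SD, n = 3 each) and a log2 difference of -0.47 ± 0.14 (SE, limma adjusted p = 0.285). The second smallest p was that of Pcna, given above. Mki67, Top2a and Ccna2, which mark dividing cells, were among the genes below the filter.

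Genes that passed the test were found among targets of CAR. Of 12 listed targets of CAR and related inducible genes 10 were tested and 7 rose, where 0.196% of all genes did. The median log2 difference of the 10 was 1.17. The list had been drawn up knowing that some of them rose, so its share beside that of all genes is not a test. Of the 7 calls 2 were left with eBayes without an intensity trend, 3 without momfluorothrin replicate 2 and 4 without momfluorothrin replicate 3. Not called were Alas1, Por and Cyp3a23-3a1. Their log2 differences were 0.45 ± 0.37, 0.08 ± 0.28 and -0.17 ± 0.14 (SE, n = 3 each), with limma adjusted p of 0.671, 0.933 and 0.657. Abcc3, an efflux pump, had 114, 122 and 100.5 in momfluorothrin livers, against 2.87, 3.05 and 2.99 in control livers, which were below the array median on every control array. It therefore entered the test through the momfluorothrin arrays alone. The signal was at least 3.94-fold higher in momfluorothrin livers when the control arrays are set to their medians, and the measured difference had an adjusted p of 0.000861 in limma. A probe set shared by Cyp2b1 and Cyp2b2, the rat cytochromes that CAR controls most strongly, had 5310, 4420 and 4964 in momfluorothrin livers, against 3527, 2573 and 2177 in control livers. Its log2 difference of 0.85 ± 0.16 had an adjusted p of 0.107 in limma (SE, n = 3 each). Whether Gadd45b and Mdm2 differ in their response from the called genes was not tested.

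**Figure D5:**
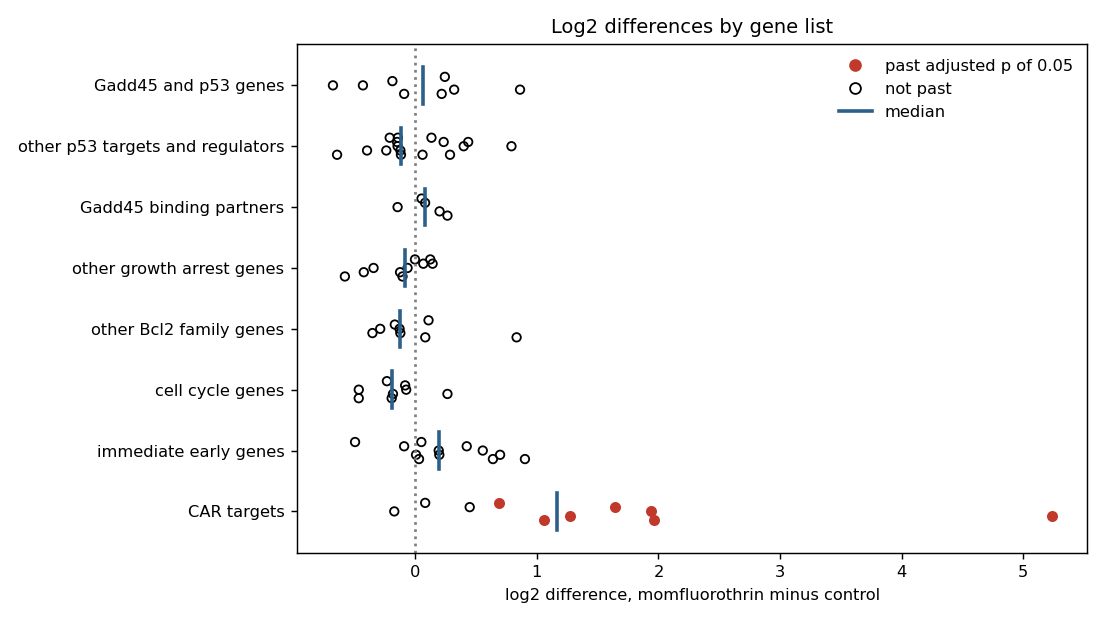
Log2 differences, momfluorothrin minus control, of the tested genes in each list, with red points for genes past an adjusted p of 0.05 in limma, open points for the others and a blue bar for the median of the list. Red points occur among the CAR targets and in no other list shown, and the rightmost point is Abcc3, whose control signals were below the array medians.

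Array medians were 25.2 ± 1.83 in the momfluorothrin group and 28.3 ± 1.18 in the control group (SD, n = 3 each, exact permutation p = 0.1, 2-sided, the smallest that 3 against 3 allows). Hepatocyte markers were bright in every liver, and the summed signal of the 7 tested was 42016 to 47475 in momfluorothrin livers and 46651 to 53025 in control livers (median log2 difference -0.15). The medians were -0.11 over 4 Kupffer cell markers, -0.04 over 6 stellate cell and matrix markers, -0.02 over 5 endothelial markers and -0.06 over 2 blood markers. The cholangiocyte list rested on Epcam, at 0.63 ± 0.16, and the lymphocyte and neutrophil list on Ptprc, at -0.04 ± 0.15 (SE, n = 3 each, adjusted p = 0.220 and 0.940 in limma). No marker passed in limma, while 2 were higher (Lyve1 and Epcam) and 4 lower (Serpina1, Cps1, Clec4f and Eng) at an unadjusted p under 0.05. Of all genes 6.05% were higher and 6.18% lower at that threshold. In pieces of whole liver, fewer cells of a type and less RNA per cell cannot be told apart.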

How the data were processed

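The deposited table holds 1 linear signal intensity per probe set and array, made by the authors with MAS5, as the submitters' processing notes state, in a version not given in the sources used here. Each array had the same mean of about 100 with 2% trimmed at each end, so no further scaling was applied. Of 31099 probe sets, 57 Affymetrix controls were left out, and the 15778 with a signal above the array median on at least 3 of 6 arrays were tested. Gene symbols came from GEO's platform annotation (20826 probe sets with 1 symbol, 436 with several, 9780 with none), and 66 of the first did not match RefSeq's GRCr8 gene table, used for names. Each gene was read from the brightest of its tested probe sets by mean log2 signal, which gave 9200 genes.

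Groups were compared on log2 signals by a 2-sided test in limma 3.58.1 (lmFit and eBayes, trend = TRUE) under R 4.3.3. P-values were adjusted after Benjamini and Hochberg over the 15778 probe sets and judged at 0.05. All probe sets of the 8 genes are named. Of each other pathway list, the genes past the threshold are named or, failing that, the 2 with the smallest p. Mdm4, Abcc3, Cyp2b1 and Cyp2b2 are also named. Dusp1, Myc, Mapk8, Mcm2, Mcm4, Mcm5, the markers and the genes named as too dim to test were added after their values were seen. So were the CAR targets not called. Of the called CAR targets only Abcc3 is described, beside the shared Cyp2b probe set. Genes and lists were chosen with earlier results of these data known. The labels number the animals 1 to 3 in each group without saying that equal numbers share anything, and the model had no block. Alternatives changed the filter, scaling, pseudocount (16), variance model, array weights, probe set rule and block, and left out each array. The number of arrays limits the precision.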

Additional observations from a re-analysis of the deposited data

How the results depend on the processing

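No gene of the group passed the adjusted threshold under any of the 15 alternatives, whose smallest adjusted p in limma was 0.319. At an unadjusted p under 0.05 the count of 0 became 2 without a filter (Sesn1 and Phlda3), 1 each with quantile normalization, median centring and array weights (Sesn1 in each), 1 with a replicate block (Gadd45b), and 0 to 4 when 1 array was left out, 4 without control replicate 1 (Gadd45b, Phlda3, Mdm2 and Gadd45g). Of all genes 10.2% passed that threshold without a filter, 10.8% without control replicate 1 and 8.47% to 13.1% over all alternatives. The count of all genes past the adjusted threshold was 20; it was 2 with eBayes without an intensity trend, 13 with the replicate block and 4 to 21 when 1 array was left out (4 without momfluorothrin replicate 2, 7 without momfluorothrin replicate 3). Deviations of same-numbered animals correlated at r = -0.10, 0.10 and -0.06 for numbers 1 to 3, and differently numbered animals at up to 0.15, so the numbers were not taken as pairs.

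Direction reversed only with arrays left out: the log2 difference of Gadd45a was -0.20 without momfluorothrin replicate 2 and -0.0064 without control replicate 1 (range -0.20 to 0.62 over the 6 left-out arrays), that of Ccng1 0.036 without momfluorothrin replicate 2 and 0.026 without control replicate 3 (range -0.17 to 0.036), and that of Gadd45g 0.26 without control replicate 3 (range -1.21 to 0.26). The other 5 genes kept theirs, but averaging the probe sets of a gene moved Sesn1 from 0.32 to 0.051, Mdm2 from -0.19 to -0.040 and Cdkn1a from 0.24 to 0.40. Gadd45b and Gadd45g were too dim to be tested under the filter at the 70th percentile. Signals near the array median limit Gadd45b, Gadd45g and the dimmer probe set of Cdkn1a.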
